A study of Mus musculus with 16 samples.

Results

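The genes described here are 39 mouse genes of DNA repair and damage signalling, a list of known repair functions whose members were matched by symbol. The rule uses no measured value, but the list was drawn up with earlier results of these data known. All 39 were found, once each, among the 24341 gene symbols measured in every library, and all 39 passed the filter on low values that left 12954 genes for testing. By role they are 11 genes of homologous recombination, 9 of the Fanconi pathway with the helicase gene Blm, 9 of break sensing and checkpoint signalling, 5 of end joining, and 5 of translesion synthesis, excision repair and mismatch repair. RNA was sequenced from muscle cells of C57BL/6 mice aged 2 to 3 months, sorted for CD34 and alpha-7 integrin and against Sca-1, CD45, CD11b and CD31, the surface profile used for muscle stem cells. The 16 libraries form 6 groups: p53WT and p53KO with no suffix (n = 3 each) and with the suffix G2 (n = 2 each), all from hind limb muscles, and p53WT_3dai and p53KO_3dai (n = 3 each) from the tibialis anterior. A difference between 3dai and the other groups is therefore also a difference of muscle. The suffixes 3dai and G2 are not explained in the labels. G2 is used here as a group name only and need not mean the phase of the cell cycle. The sources used here do not give how p53 was removed, and no Dmd genotype is labelled although the series title names a Duchenne model. Nothing in the labels says that the libraries of a group came from separate animals, so p-values measure only the spread between these samples, which may be technical.

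Cells repair a DNA break by homologous recombination, which copies the sister chromatid and is used in S and G2 phase, or by end joining, which seals the ends at any phase. The Fanconi pathway opens crosslinks between the strands and hands the resulting break to recombination, and the kinases ATM and ATR report damage or stalled forks to the checkpoint kinases CHK2 and CHK1. Translesion polymerases copy past damaged bases, nucleotide excision repair cuts out bulky lesions, and mismatch repair corrects copying errors. Many genes of recombination and of the checkpoint are transcribed mainly in dividing cells through E2F factors, while p53 is known to raise several excision and translesion genes, a set that differs between human and mouse cells. Adult muscle stem cells rest outside the cell cycle until injury or disease makes them divide.

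The values are FPKM, fragments per kilobase of transcript scaled to the mapped reads of the library, so levels of different genes can be compared, and sequencing depth is unknown from these values. Trp53, the gene named by the knockout, did not overlap between genotypes in any state, with p53KO libraries at 6.34 to 12.2 against 39.9 to 53.9 FPKM with no suffix, 34.9 to 45.7 against 134 to 161 in 3dai, and 16.7 to 19.8 against 59.9 to 71.0 in G2. Trp53 RNA was thus lower but not absent with p53KO, and its p53KO_3dai values overlapped those of p53WT with no suffix. Between 10240 and 11574 genes reached 1 FPKM in a library, and libraries of one group correlated at 0.917 to 0.968 on the log2 scale over the genes tested. The library p53KO replicate 3 stood highest of the 6 libraries with no suffix in the mean log2(FPKM + 1) of the 39 genes, at 1.71 against 1.32 to 1.49 in the other five. In p53KO_3dai replicates 2 and 3 a single small RNA name, Mir6236, took 9.81% and 10.1% of all FPKM, against 0.277% to 2.36% elsewhere.

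Most of the repair genes stood higher in 3dai cells than in cells with no suffix, in both genotypes. In p53WT, 32 of the 39 genes rose and 0 fell by limma's moderated test at an adjusted p under 0.05, where 31.8% of all genes tested rose and 20.9% fell. In p53KO, 27 rose and 0 fell, against 30.4% and 22.7% of all genes. The median difference of the 39 genes was 1.64 on the log2(FPKM + 1) scale in p53WT and 1.38 in p53KO, where all genes tested had medians of 0.23 and 0.14. Without p53KO_3dai replicates 2 and 3, 24 were called in p53KO: Xrcc3, Fancd2, Fancg and Chek2 no longer passed, and Msh6 did. All 27 genes called in p53KO were also called in p53WT. The 5 called in p53WT alone were Rad51c, Xrcc2, Trp53bp1, Mdc1 and Msh6. Of these, Trp53bp1 and Mdc1 also passed in p53KO with small RNA and mitochondrial names left out or with array weights, and Xrcc2 with array weights. Whether they differ between genotypes is given with the interaction below. The genes that passed in neither genotype were Rad51b, Rad52, Fancc, Xrcc4, Prkdc, Xpc and Ddb2. In RNA of whole sorted populations, fewer cells that express a gene and less RNA per cell cannot be told apart.

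G2 cells stood between the other states for most of the genes. Against cells with no suffix, 20 of the 39 genes rose in p53WT G2 cells, against 22.1% of all genes tested, and 19 rose in p53KO, against 22.5%. In each genotype 0 of the 39 fell, where 5.39% and 7.06% of all genes fell. Against 3dai cells, 12 genes were lower in G2 in each genotype, 9 of them in both, and 0 were higher, where 6.7% of all genes were lower and 13.9% higher in p53WT and 7.1% and 16.1% in p53KO. The group means ran in the order no suffix, G2, 3dai for 29 of the 39 genes in p53WT and 29 in p53KO, an order that 33.9% and 31% of all genes tested showed. For 17 genes in each genotype the 3 states did not overlap in that order, which held for 13.8% and 11.6% of all genes. Brca1, Brca2, Bard1, Rad54l, Fancb, Fanci, Blm, Rad50, Mre11a, Atm, Chek1, Xrcc6 and Polh were among those 17 in both genotypes. The counts in G2 rest on 2 libraries a group: leaving out p53WT_G2 replicate 1 left 11 of the 20 rises in p53WT and p53WT_G2 replicate 2 left 12, and leaving out p53KO_G2 replicate 1 left 8 of the 19 in p53KO. Of the 12 lower genes in p53WT G2 against 3dai, 4 passed without either p53WT_G2 library, 6 without p53WT_3dai replicate 1 and 7 without p53WT_3dai replicate 2. Of the 12 in p53KO, 5 calls were made without p53KO_G2 replicate 2, and 6 without p53KO_G2 replicate 1 or p53KO_3dai replicate 3. With p53KO_3dai replicates 2 and 3 both left out, none of those 12 passed and Rad51b alone was called, higher in G2 (2.42, adjusted p = 0.0397).

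**Figure D1:**
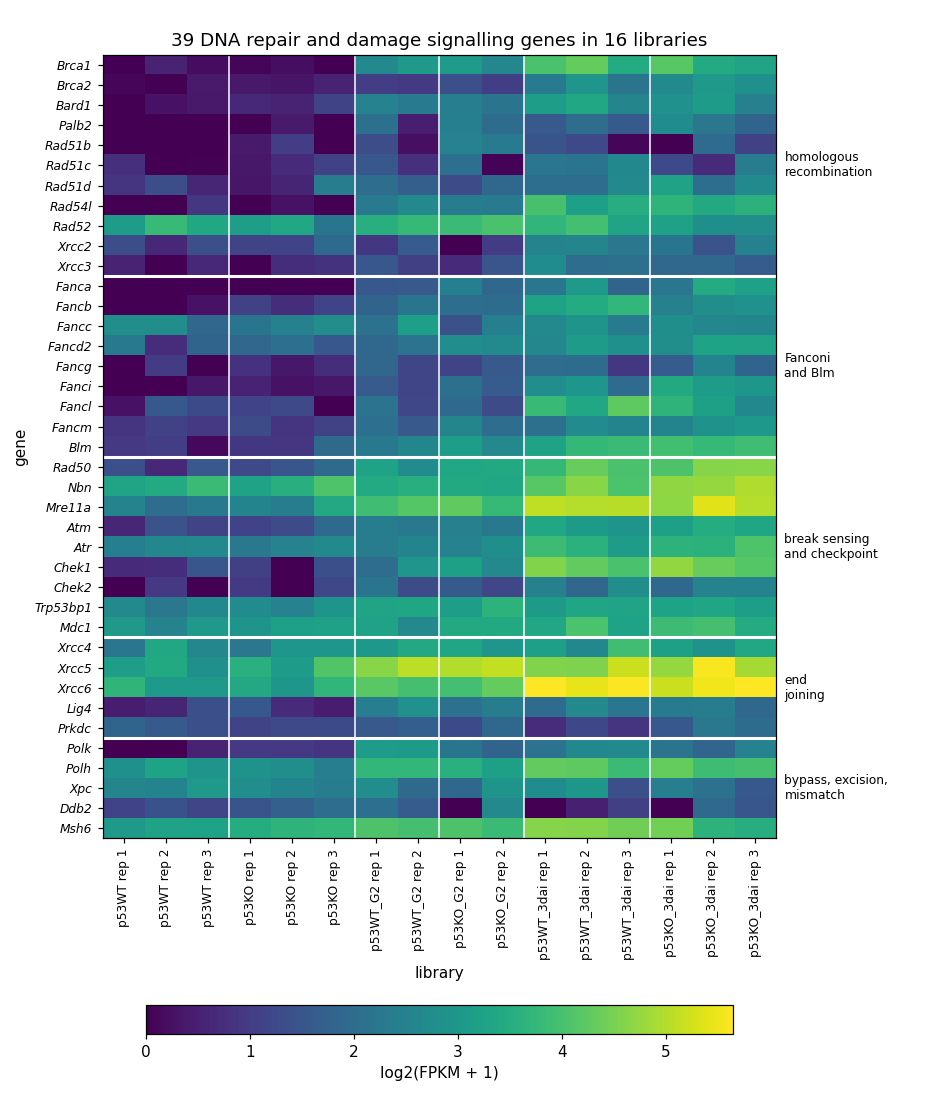
Each row is 1 of the 39 repair genes, grouped by role, and each column 1 of the 16 libraries; colour gives log2(FPKM + 1) from 0 (dark) upward. The 6 libraries with no suffix at the left are darkest for most rows, the 4 G2 libraries in the middle are lighter and the 6 3dai libraries at the right lightest, with mean values of 1.32 to 1.71, 2.37 to 2.48 and 2.93 to 3.15.

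How the libraries are scaled moves the share of all genes called higher or lower, and with it the counts above. With median-of-ratios scaling the median of all genes moved from 0.23 to -0.07 in 3dai against no suffix in p53WT, from 0.14 to -0.10 in p53KO, and from 0.33 to 0.00 and 0.31 to -0.03 in G2 against no suffix. Calls over all genes then went from 4122 higher and 2701 lower to 3038 and 3558 in 3dai p53WT, and from 3939 and 2944 to 3022 and 3707 in 3dai p53KO. In G2 they went from 2868 and 698 to 1637 and 1524 in p53WT, and from 2916 and 914 to 1590 and 1644 in p53KO. Of the 39 repair genes, 27 were then higher in 3dai p53WT cells and 1, Prkdc, lower, 27 were higher in 3dai p53KO cells, and 12 and 11 were higher in G2. Medians of the 39 genes under that scaling were 1.26 and 1.17 in 3dai, and 0.70 and 0.59 in G2. The G2 rises lost under it were those of Palb2, Atm, Chek1, Chek2, Trp53bp1, Xrcc6, Polh and Msh6 in p53WT. In p53KO they were those of Rad52, Fancb, Fancm, Mre11a, Atm, Xrcc6, Lig4 and Polk.

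Genes that mark dividing cells moved with the repair genes across the states. The summed FPKM of 14 such genes, among them Mki67, Top2a, Cdk1 and Pcna, was 147 to 195 in the libraries with no suffix, 634 to 997 in G2 and 1716 to 1856 in 3dai. Pcna alone made up 111 to 161 FPKM of the sum with no suffix, where Mki67, Top2a and Cdk1 were each at most 2.10. All 14 were called higher in 3dai than with no suffix in each genotype, 13 of 14 in G2, and 14 in p53WT and 12 in p53KO were lower in G2 than in 3dai. Between genotypes 0 of the 14 were called in any state, but in G2 all 14 had positive differences with p53KO (median 0.39). There 7 stood higher without overlap, as did 15% of all genes tested. The 14 genes summed to 997 and 684 FPKM in p53KO_G2 replicates 1 and 2, against 641 and 634 in p53WT_G2. The size of the G2 difference thus rests largely on p53KO_G2 replicate 1. Satellite cell genes summed to 2768 to 3469 FPKM with no suffix, 1035 to 1344 in G2 and 825 to 895 in 3dai. Of the 9 satellite cell genes, 6 were called lower in 3dai in each genotype and 1, Itga7, which codes the integrin used in the sort, higher, at 181 to 226 FPKM against 81.1 to 92.3. In G2 Itga7 was higher in both genotypes and Cdh15 in p53WT. The summed markers of other cells were lowest in 3dai or low throughout: fibro-adipogenic genes were at 441.7 to 753 FPKM with no suffix, 166 to 345 in G2 and 25.4 to 61.0 in 3dai, Schwann cell genes at 282 to 368, 138 to 149 and 28.9 to 78.2, pericyte genes at 266 to 881, 316 to 678 and 14.1 to 45.4, and tendon cell genes at 219 to 438, 230.3 to 542 and 36.0 to 85.8. Some members went against their list's sum: Scx of the tendon list was called higher in 3dai in both genotypes (26.0 to 70.4 FPKM against 2.25 to 9.01), and Ngfr of the Schwann list in p53WT (29.1 to 48.8 against 2.05 to 4.53). The fibro-adipogenic sum with no suffix was mostly Dcn (340 to 625 FPKM) and Col1a1 (63.9 to 150). In that list Pdgfra was at most 1.00 with no suffix. Ly6a did not follow the sum, at 0 to 2.79 with no suffix and 0 to 6.60 in 3dai. Endothelial genes summed to at most 9.98 FPKM and macrophage genes to at most 16.9 in any library, and Ptprc, which codes CD45, reached at most 0.00898. The part of dividing or other cells in the repair gene differences was not tested.

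**Figure D2:**
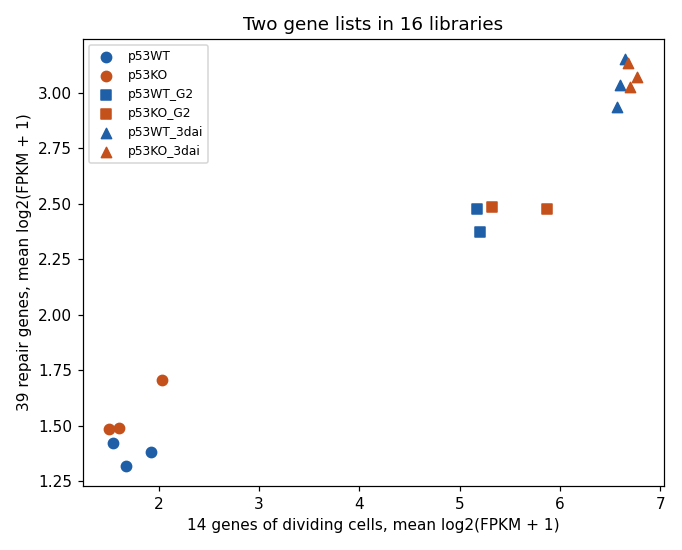
Each point is 1 of the 16 libraries; the horizontal axis is the mean log2(FPKM + 1) of the 14 genes of dividing cells and the vertical axis that of the 39 repair genes, with colour for genotype and shape for state. The 3 states form separate clusters, and on the vertical axis p53KO libraries lie above p53WT libraries with no suffix (1.48 to 1.71 against 1.32 to 1.42), the genotypes overlap in 3dai, and all 4 G2 libraries lie between 2.37 and 2.48.

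Because so many of these genes stood high together in 3dai and G2 cells, their promoters were read for motifs of cell-cycle and p53 control. RefSeq promoters of the GRCm38.p6 build, 250 bases before to 50 after the start, were held for 31 of the 39 genes. On either strand, the E2F words TTTCCCGC, TTTCGCGC, TTTGCCGC or TTTGGCGC occurred in 8 of the 31 (25.8%), against 2.6% of 27025 genes. The 27025 genes were not matched to the 31 in base composition, and its part in these shares was not tested. The CHR word TTTGAA occurred in 2 of 31 (6.45%, against 20.2%) and CCAAT in 17 of 31 (54.8%, against 41.1%). The p53 half-site, a single decamer and not a full p53 site, occurred in 3 of 31 (9.68%, against 9.55%), namely Fanca, Fancg and Polk. All 8 genes with an E2F word were among the 27 promoters of genes called higher in 3dai p53WT cells, and 0 of the other 4 promoters held one. With 27 of the 31 promoters in the called set and only 4 outside it, this split cannot show whether the word goes with the rise. The stretches around the 6 words that lie wholly before the start follow, 5′ to 3′ on the gene's strand, with the E2F word in capitals; this set was picked after the matches were seen. The words of Rad51c and Msh6 lie at or after the start and are not shown. A match is a run of letters and not a measured binding site.
Brca2, chr5:150522437-150522476 (+): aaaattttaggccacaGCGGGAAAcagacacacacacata
Bard1, chr1:71103158-71103197 (-): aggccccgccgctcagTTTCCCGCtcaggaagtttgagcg
Fancg, chr4:43010330-43010369 (-): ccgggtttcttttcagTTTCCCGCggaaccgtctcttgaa
Chek2, chr5:110839815-110839854 (+): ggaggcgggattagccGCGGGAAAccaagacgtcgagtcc
Mdc1, chr17:35841466-35841497 (+): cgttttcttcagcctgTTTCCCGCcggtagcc
Xrcc6, chr15:82016307-82016346 (+): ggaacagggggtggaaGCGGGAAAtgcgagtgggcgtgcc

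The 3 genes with the largest rises in 3dai p53WT cells, Brca1, Fancb and Chek1, held none of the E2F words in the window read. Their 250 bases before the start follow, from RefSeq on GRCm38.p6, with CCAAT in capitals. It begins 86 bases before the start in Brca1 and 201 before it in Fancb, and the Chek1 stretch holds none of the motifs searched.
Brca1, chr11:101551956-101552205 (-): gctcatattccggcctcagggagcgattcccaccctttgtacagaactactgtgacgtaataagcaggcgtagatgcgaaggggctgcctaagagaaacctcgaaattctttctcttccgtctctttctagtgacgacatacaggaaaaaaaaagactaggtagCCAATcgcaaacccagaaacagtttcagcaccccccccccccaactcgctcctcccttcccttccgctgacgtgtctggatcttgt
Fancb, chrX:164980342-164980591 (+): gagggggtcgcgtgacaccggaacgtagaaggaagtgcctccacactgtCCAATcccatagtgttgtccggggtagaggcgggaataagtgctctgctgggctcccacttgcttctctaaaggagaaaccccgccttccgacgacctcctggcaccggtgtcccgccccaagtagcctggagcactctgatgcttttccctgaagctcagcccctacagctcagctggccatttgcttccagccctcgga
Chek1, chr9:36726659-36726908 (-): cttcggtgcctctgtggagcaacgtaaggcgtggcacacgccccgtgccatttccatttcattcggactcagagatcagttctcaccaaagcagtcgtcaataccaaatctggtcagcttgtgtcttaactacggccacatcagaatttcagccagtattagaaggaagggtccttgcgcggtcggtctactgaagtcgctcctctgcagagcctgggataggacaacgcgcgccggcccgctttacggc

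Among the 11 recombination genes, 9 rose in 3dai cells in p53WT and 7 in p53KO, with medians of 1.89 and 1.56 on the log2(FPKM + 1) scale. Of all genes tested, 31.8% and 30.4% rose. Brca1 (chr11:101488764-101551955, mm10) codes the ubiquitin ligase subunit that commits a break to recombination, and it had the largest rise of all 39 genes in p53WT. It was at 0, 0.469 and 0.144 FPKM in p53WT and 0.0661, 0.158 and 0 in p53KO with no suffix. In 3dai it was at 15.2, 18.8 and 10.1 in p53WT and 17.1, 10.0 and 8.82 in p53KO, and in G2 at 5.31 and 7.29, and 7.69 and 5.08. Every 3dai library stood above every G2 library and every G2 library above all those with no suffix. The rise in 3dai was 3.68 (SE 0.32, adjusted p = 2.36e-07) in p53WT and 3.54 (adjusted p = 3.16e-07) in p53KO, and in G2 2.61 (adjusted p = 8.91e-05) and 2.76 (adjusted p = 5.24e-05). The fall from 3dai to G2 passed in p53WT alone, at -1.08 (adjusted p = 0.0458). It did not pass without any 1 of p53WT_3dai replicates 1 and 2 and p53WT_G2 replicates 1 and 2, when adjusted p was 0.105 to 0.261.

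Rad54l (chr4:116075269-116123690) codes a motor protein of strand exchange. With no suffix it was at 0, 0 and 0.880 FPKM in p53WT and 0, 0.216 and 0 in p53KO. It reached 15.0, 8.13 and 10.5 in 3dai, and 11.7, 9.79 and 11.3 with p53KO, and in G2 it was at 4.00 and 5.33, and 4.28 and 3.93. The states did not overlap. Its rise was 3.27 (SE 0.31, adjusted p = 5.71e-07) and 3.48 (adjusted p = 2.84e-07) in 3dai, and 2.19 (adjusted p = 0.000305) and 2.26 (adjusted p = 0.000227) in G2, in p53WT and p53KO. The locus counted for Rad54l is more than 1.5 times as wide as the RefSeq gene (1.64 times). Those of Rad51c (34.3 times), Msh6 (5.70), Xrcc3 (5.14), Fancl (2.44) and Fancc (2.38) are wider still. Reads of a neighbour may therefore be part of these 6 values.

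Brca2 (chr5:150522621-150570146), the breast cancer gene that acts at the central step of recombination, was at 0.0691, 0 and 0.330 FPKM in p53WT and 0.308, 0.241 and 0.479 in p53KO with no suffix. It was at 4.10, 6.69 and 3.50, and 5.44, 7.32 and 6.17 in 3dai, and at 1.03 and 0.937, and 1.58 and 1.05 in G2. Its rises in 3dai were 2.32 (SE 0.28, adjusted p = 6.76e-06) and 2.44 (adjusted p = 4.01e-06). Its G2 levels lay above all libraries with no suffix but did not pass (0.82, adjusted p = 0.0682, and 0.78, adjusted p = 0.0767). In p53WT that difference passed with a pseudocount of 0.1 (adjusted p = 0.0132), no filter (0.0473) or array weights (0.0496). From 3dai to G2 it fell by 1.502 (adjusted p = 0.00374) in p53WT and by 1.66 (adjusted p = 0.00177) in p53KO, the largest fall in p53KO. In p53KO that fall did not pass with p53KO_3dai replicates 2 and 3 left out (-1.48, adjusted p = 0.0723).

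Palb2, which joins BRCA1 to BRCA2, is listed at 0 in all 3 p53WT libraries with no suffix and at 0, 0.325 and 0 FPKM in p53KO. In 3dai it was at 1.98, 3.05 and 2.05, and 5.75, 3.73 and 2.52, and in G2 at 3.22 and 0.386, and 4.44 and 3.01. All 6 3dai libraries and 3 of the 4 G2 libraries were above 1 FPKM. It was called higher in 3dai and in G2 in both genotypes (adjusted p = 0.00132 and 0.000238 in 3dai, 0.0368 and 0.00195 in G2), the G2 call in p53WT being lost without p53WT_G2 replicate 1 (adjusted p = 0.506) or any 1 p53WT library (0.0694 to 0.0741). Bard1, the partner of BRCA1, rose in 3dai and in G2 in both genotypes, from means of 0.175 ± 0.161 (SD, n = 3) in p53WT and 0.745 ± 0.415 in p53KO to 7.40 ± 2.24 and 6.14 ± 1.62 in 3dai.

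Rad51b, Rad51c, Rad51d, Xrcc2 and Xrcc3, a family of related genes that assist recombination, were less uniform. Rad51b is listed at 0 in the 3 p53WT libraries and was at 0.336, 1.04 and 0 FPKM in p53KO with no suffix, at 1.77, 1.38 and 0.0718, and 0, 2.93 and 1.15 in 3dai, and at 1.51 and 0.172, and 4.65 and 4.04 in G2. The 2 p53KO_G2 libraries were the highest of all 16. Only the G2 rise in p53KO passed (1.93, SE 0.55, adjusted p = 0.0147), and it was lost without either p53KO_G2 library (adjusted p = 0.0911 without replicate 1 and 0.0528 without replicate 2). Against 3dai, Rad51b differed by -0.16 in p53WT G2 cells and by 1.39 in p53KO (adjusted p = 0.0802), the latter passing without p53KO_3dai replicate 2 (1.87, adjusted p = 0.0312).

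Xrcc2, of the same family, was at 1.57, 0.553 and 1.60 FPKM in p53WT and 1.22, 1.18 and 2.82 in p53KO with no suffix. In 3dai it was at 4.73, 4.92 and 3.75, and 3.58, 1.74 and 4.56, and in G2 at 0.874 and 2.13, and 0 and 0.991. The p53KO_G2 libraries lay below all p53KO libraries of the other states. In 3dai it rose in p53WT (1.32, SE 0.39, adjusted p = 0.00964) and was not called in p53KO (0.64, adjusted p = 0.18). The p53WT call was lost with a pseudocount of 0.1 (0.0587), and the p53KO difference passed with array weights (0.84, adjusted p = 0.0338). From 3dai to G2 it fell by 1.55 in p53KO (SE 0.43, adjusted p = 0.0186) and differed by -1.17 in p53WT (adjusted p = 0.0693). The p53KO fall did not pass without p53KO_3dai replicate 3 (adjusted p = 0.0737) or p53KO_G2 replicate 1 (0.181), nor with p53KO_3dai replicates 2 and 3 both left out (0.1).

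Of the rest of that family, Xrcc3 rose in 3dai in both genotypes (1.89 and 1.28), Rad51c in p53WT alone (2.07, adjusted p = 0.00308), and Rad51d in both (1.29 and 1.56). The locus counted for Rad51c is 34.3 times as wide as its RefSeq gene, so its values may hold reads of other genes. The Rad51d calls are weak: in p53WT any 1 of 4 libraries and in p53KO any 1 of 3 ends them when left out, with adjusted p of 0.0521 to 0.115 and 0.0573 to 0.0728. Xrcc3 in p53KO was at adjusted p = 0.0582 without p53KO_3dai replicates 2 and 3. Rad52, an annealing protein, was the one recombination gene already at 3.55 to 13.1 FPKM with no suffix, against at most 4.27 for the other ten. It did not pass in 3dai in either genotype (0.21 and 0.05) and rose in G2 in p53KO (1.03, SE 0.35, adjusted p = 0.0362), a call lost without p53KO replicate 3 (0.118) or either p53KO_G2 library (0.109 and 0.144).

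Of the 9 Fanconi and Blm genes, 8 rose in 3dai cells in each genotype, and 4 in p53WT and 5 in p53KO rose in G2. The shares of all genes tested were 31.8% and 30.4% in 3dai and 22.1% and 22.5% in G2. Fancb (chrX:164980592-164997272) codes a subunit of the core complex that ubiquitinates FANCD2. It was at 0, 0 and 0.215 FPKM in p53WT and 1.14, 0.676 and 1.20 in p53KO with no suffix, at 8.69, 10.1 and 12.4, and 4.53, 5.92 and 6.27 in 3dai, and at 2.54 and 3.57, and 3.14 and 2.98 in G2. With no suffix every p53KO library lay above every p53WT library, in 3dai every p53KO library lay below, and in G2 the genotypes overlapped. The rise in 3dai was 3.40 (SE 0.27, adjusted p = 8.1e-08) in p53WT and 1.71 (adjusted p = 6.97e-05) in p53KO. The difference between these rises, an interaction of -1.69 (SE 0.38), had the smallest p of the 39 genes and did not pass over all genes (adjusted p = 0.468).

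Blm, the helicase that dissolves crossed DNA strands, was at 0.928, 1.03 and 0.0829 FPKM in p53WT and 0.879, 0.866 and 2.85 in p53KO with no suffix. In 3dai it was at 8.57, 12.6 and 13.5, and 14.4, 12.7 and 14.1, and in G2 at 3.87 and 5.04, and 7.85 and 5.27. The 3 states did not overlap in either genotype. It rose in 3dai by 2.93 (SE 0.34, adjusted p = 4.46e-06) and 2.63 (adjusted p = 1.28e-05), and in G2 by 1.75 and 1.65. The G2 rise in p53KO did not pass without p53KO_G2 replicate 1 (adjusted p = 0.0661).

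Fanca, a core complex subunit, is listed at 0 in the 3 p53WT libraries and was at 0.0151, 0 and 0 FPKM in p53KO with no suffix. It was at 3.62, 7.15 and 2.52, and 3.65, 10.2 and 8.36 in 3dai, and at 1.89 and 1.97, and 4.41 and 2.71 in G2. All 10 libraries of 3dai and G2 stood above every library with no suffix. It was called higher in both states and genotypes (adjusted p = 7.07e-05 and 7.28e-06 in 3dai, 0.0106 and 0.00115 in G2), the G2 call in p53WT being lost without either p53WT_G2 library (0.0589 and 0.0743).

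Fancl (chr11:26387084-26593920), the ubiquitin ligase of the complex, was at 0.214, 1.92 and 1.40 FPKM in p53WT and 1.19, 1.36 and 0 in p53KO with no suffix. In 3dai it was at 13.3, 9.51 and 18.1, and 11.7, 8.27 and 5.20, and in G2 at 3.43 and 1.305, and 2.79 and 1.45. The 3dai libraries stood above all others, and G2 overlapped with no suffix in p53WT. It rose in 3dai by 2.80 (SE 0.45, adjusted p = 8.86e-05) and 2.38 (adjusted p = 0.000367) and was not called in G2 against no suffix (0.65 and 0.81). From 3dai to G2 it fell by 2.15 in p53WT (SE 0.50, adjusted p = 0.00684), the largest fall of the 39 genes, and by 1.57 in p53KO (adjusted p = 0.0345). The p53WT fall did not pass without p53WT_G2 replicate 2 (adjusted p = 0.108), and the p53KO fall did not pass when p53KO_3dai replicate 1 (0.0882), p53KO_3dai replicate 2 (0.0817), p53KO_G2 replicate 1 (0.0567) or p53KO_G2 replicate 2 (0.22) was missing.

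Fancc, also of the core complex, was the member of this role that did not pass in 3dai. It was at 5.95, 5.96 and 2.66 FPKM in p53WT and 3.59, 4.63 and 5.95 in p53KO with no suffix, 5.31, 6.54 and 4.11, and 5.99, 5.16 and 5.04 in 3dai, and 3.37 and 8.11, and 1.64 and 4.42 in G2. Its groups overlapped in most comparisons, and its differences were 0.15 and 0.18 in 3dai and 0.17 and -0.58 in G2. Fanci and Fancd2, the pair that is ubiquitinated at a crosslink, both rose in 3dai: Fanci by 2.45 and 2.78, Fancd2 by 1.24 and 1.28. Fancm, the motor that recognises the stalled fork, rose by 1.48 and 1.72, and Fancg by 1.32 and 1.38. With p53KO_3dai replicates 2 and 3 left out, Fancd2 (adjusted p = 0.169) and Fancg (0.177) did not pass in p53KO.

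**Figure D3:**
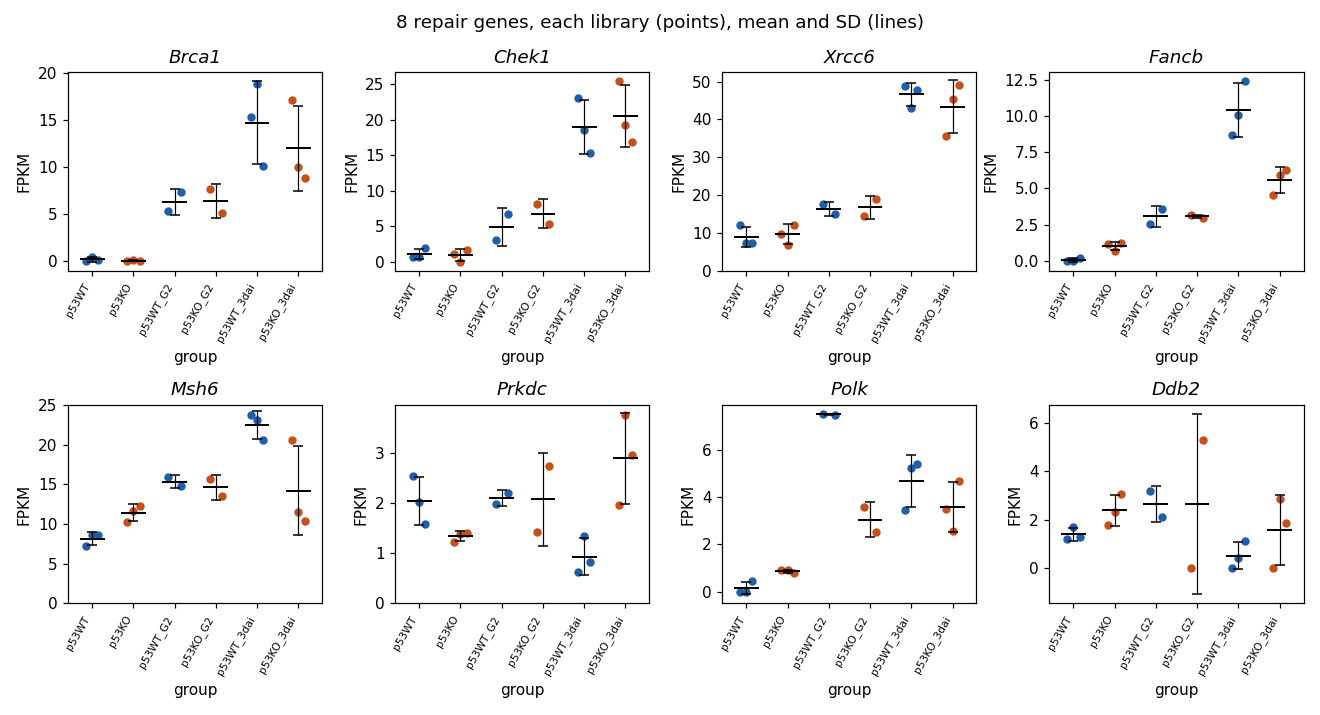
Each panel is 1 of 8 repair genes, each point 1 library in FPKM, with the group mean as a horizontal line and 1 SD as the error bar; p53WT is blue and p53KO orange. Brca1, Chek1 and Xrcc6 stand highest in both 3dai groups, Fancb and Msh6 differ in order between genotypes with no suffix and in 3dai, Polk is highest in p53WT_G2, and 1 p53KO_G2 library of Ddb2 is listed at 0.

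All 9 genes of break sensing and checkpoint signalling rose in 3dai p53WT cells and 7 in p53KO, against 31.8% and 30.4% of all genes. Chek1 (chr9:36708482-36726658), the checkpoint kinase downstream of ATR, led them. It was at 0.619, 0.672 and 1.86 FPKM in p53WT and 1.09, 0 and 1.61 in p53KO with no suffix, at 23.0, 18.5 and 15.4, and 25.5, 19.2 and 16.9 in 3dai, and at 3.03 and 6.75, and 8.19 and 5.30 in G2. The lowest 3dai library stood above the highest G2 library, and the lowest G2 library above every library with no suffix. It rose in 3dai by 3.32 (SE 0.39, adjusted p = 4.08e-06) and 3.59 (adjusted p = 1.83e-06), and in G2 by 1.499 (adjusted p = 0.0174) and 2.11 (adjusted p = 0.00197). From 3dai to G2 it fell by 1.82 (adjusted p = 0.00779) and 1.48 (adjusted p = 0.0227). In p53WT the G2 rise did not pass without p53WT replicate 1 (0.0534) or p53WT_G2 replicate 2 (0.226), and the fall did not pass without p53WT_G2 replicate 1 (0.125). In p53KO the fall did not pass without p53KO_3dai replicate 1 (0.0549), p53KO_3dai replicate 2 (0.0506) or p53KO_G2 replicate 2 (0.169).

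Rad50, Mre11a and Nbn code the complex that holds broken ends and activates ATM. Mre11a was the most abundant of them in 3dai, at 32.3 ± 1.23 FPKM (SD, n = 3) in p53WT and 32.4 ± 8.13 in p53KO, against 3.89 ± 0.829 and 6.23 ± 3.01 with no suffix. It rose by 2.78 and 2.26 in 3dai and by 1.76 and 1.25 in G2, and Rad50 rose by 2.84 and 2.87 in 3dai and by 1.81 and 1.83 in G2. The G2 rise of Mre11a in p53KO was at adjusted p = 0.0951 without p53KO_G2 replicate 1. Nbn was already at 8.59 to 16.2 FPKM with no suffix and rose less in 3dai, by 0.76 (adjusted p = 0.0177) and 1.18 (adjusted p = 0.000919). In p53WT that call was lost without p53WT replicate 1 (0.0708) or p53WT_3dai replicate 2 (0.0903), and also with median-of-ratios scaling (0.229). In G2, Nbn differed from no suffix by -0.03 and -0.23, so that the 3 subunits did not share one pattern there.

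The kinase genes Atm and Atr also parted in G2. Atr was at 4.40, 5.08 and 5.41 FPKM in p53WT and 3.80, 4.70 and 5.52 in p53KO with no suffix, at 13.7, 11.2 and 7.70, and 11.6, 11.3 and 16.0 in 3dai, and at 4.21 and 4.82, and 4.71 and 6.02 in G2. Its 3dai libraries lay above all others, while its G2 libraries overlapped those with no suffix. Atr rose in 3dai by 0.96 (SE 0.26, adjusted p = 0.00555) and 1.29 (adjusted p = 0.000619), the p53WT call being lost with median-of-ratios scaling (0.0658), and it differed in G2 by -0.11 and 0.17. Atm rose in 3dai by 2.06 and 1.90 and in G2 by 1.26 (adjusted p = 0.0109) and 0.92 (adjusted p = 0.0486). The G2 call of Atm was lost without either p53WT_G2 library in p53WT (0.0719 and 0.0659) and without any 1 of p53KO replicates 1 and 2 and the p53KO_G2 libraries in p53KO (0.101 to 0.201).

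Chek2, the kinase downstream of ATM, rose in 3dai by 2.06 and 1.60, the p53KO call not passing without p53KO_3dai replicates 2 and 3 (adjusted p = 0.14). The adaptors Trp53bp1 and Mdc1, which bind chromatin around a break, stood at 3.71 to 8.40 FPKM with no suffix and had the smallest rises of this role in p53WT, 0.73 (adjusted p = 0.0176) and 0.71 (adjusted p = 0.0382). Both calls were lost without p53WT replicate 2 (0.0723 and 0.144) or p53WT_3dai replicate 2 (0.0545 and 0.184) and with median-of-ratios scaling (0.209 and 0.303). In p53KO their differences of 0.53 and 0.66 did not pass (adjusted p = 0.0735 and 0.0526), but both passed with small RNA and mitochondrial names left out (0.0408 and 0.0271) and with array weights (0.014 and 0.0243). Mdc1 also passed in p53KO with the filter at a mean of 5 FPKM (0.0407) and without p53KO_3dai replicate 3 (0.0402).

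Of the 5 end joining genes, 3 rose in both 3dai and G2 in each genotype: Xrcc6 and Xrcc5, which code the Ku70 and Ku80 ring that caps broken ends, and Lig4, the ligase. Over all genes tested, 31.8% and 30.4% rose in 3dai and 22.1% and 22.5% in G2, in p53WT and p53KO. Xrcc6 (chr15:82016369-82040084) reached the highest level of the 39 genes in 3dai p53WT cells, at 48.9, 43.1 and 47.9 FPKM, and 35.6, 45.4 and 49.1 in p53KO. It was at 12.0, 7.27 and 7.36, and 9.65, 6.90 and 12.2 with no suffix, and at 17.5 and 14.9, and 14.5 and 18.9 in G2. The states did not overlap. It rose in 3dai by 2.30 (SE 0.24, adjusted p = 1.34e-06) and 2.09 (adjusted p = 3.51e-06), and from 3dai to G2 it fell by 1.47 (adjusted p = 0.00136) and 1.32 (adjusted p = 0.00262). Without p53KO_3dai replicates 2 and 3 the p53KO fall did not pass (0.113). Its smaller rises in G2, of 0.83 (adjusted p = 0.0313) and 0.76 (adjusted p = 0.0426), did not pass when any 1 of p53WT replicates 2 and 3, p53KO replicates 1 and 2 or the 4 G2 libraries was left out (0.0727 to 0.229). Both were also lost with median-of-ratios scaling (0.285 and 0.366), quantile normalization (0.35 and 0.404) and only the compared groups in the fit (0.0715 and 0.131).

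Xrcc5 did not follow its partner from 3dai to G2. It was at 7.83, 9.76 and 6.13 FPKM in p53WT and 11.0, 7.53 and 16.2 in p53KO with no suffix, at 22.8, 22.4 and 35.9, and 26.0, 47.4 and 28.6 in 3dai, and at 23.99 and 33.1, and 30.9 and 33.9 in G2. The G2 libraries lay within the range of the 3dai libraries in both genotypes. Xrcc5 rose in 3dai by 1.64 (SE 0.30, adjusted p = 0.000272) and 1.48 (adjusted p = 0.000629) and in G2 by 1.73 (adjusted p = 0.00131) and 1.46 (adjusted p = 0.00417), and from 3dai to G2 it differed by 0.09 and -0.02. Lig4 rose in G2 by 1.83 (adjusted p = 0.00332) and 1.36 (adjusted p = 0.0187), calls lost in p53WT without p53WT_G2 replicate 2 (0.0533) and in p53KO without p53KO replicate 2 or 3 or either p53KO_G2 library (0.0571 to 0.103). It was at 5.27 ± 1.31 FPKM (SD, n = 2) in p53WT_G2 against 3.98 ± 1.22 (n = 3) in 3dai. Xrcc4, the scaffold of the ligase, was at 3.68 to 9.22 FPKM with no suffix and passed in no comparison.

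Prkdc (chr16:15637866-15842239), the DNA-dependent protein kinase that Ku recruits, was the one gene whose 3dai difference had opposite signs in the genotypes. It was at 2.55, 2.02 and 1.58 FPKM in p53WT and 1.23, 1.38 and 1.41 in p53KO with no suffix, at 0.633, 1.34 and 0.833, and 1.96, 3.77 and 2.97 in 3dai, and at 1.99 and 2.22, and 1.42 and 2.74 in G2. With no suffix every p53KO library lay below every p53WT library, in 3dai every p53KO library lay above, and in G2 they overlapped. The 3dai difference was -0.66 (SE 0.29, adjusted p = 0.0707) in p53WT and 0.71 (adjusted p = 0.0528) in p53KO, and the interaction was 1.37 (SE 0.41, adjusted p = 0.804). In p53WT the difference passed with median-of-ratios scaling (-0.89, adjusted p = 0.0183), and in p53KO without p53KO_3dai replicate 1 (0.90, adjusted p = 0.0283), with no filter (0.0411), quantile normalization (0.0184), small RNA and mitochondrial names left out (0.0395) or array weights (0.00616).

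Of the translesion, excision and mismatch genes, 3 of 5 rose in 3dai p53WT cells and 2 of 5 in p53KO. The shares of all genes tested were 31.8% and 30.4%, so the p53KO count is near its share. Polk, a translesion polymerase, was at 0, 0 and 0.461 FPKM in p53WT and 0.912, 0.904 and 0.800 in p53KO with no suffix. It was at 3.44, 5.25 and 5.42, and 3.51, 2.58 and 4.68 in 3dai, and at 7.53 and 7.48, and 3.58 and 2.52 in G2. The 2 p53WT_G2 libraries were the highest of all 16, and the p53KO libraries lay above p53WT with no suffix and below it in G2. In p53WT it rose by 2.91 in G2 (SE 0.32, adjusted p = 1.16e-05), the largest G2 rise of the 39 genes, and by 2.31 in 3dai (adjusted p = 8.56e-06). In p53KO it rose by 1.10 in G2 (adjusted p = 0.0181, and 0.142 without p53KO_G2 replicate 1) and by 1.27 in 3dai (adjusted p = 0.00173). The interaction in G2 was -1.80 (SE 0.46) and did not pass (adjusted p = 0.591).

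Polh, the polymerase that copies past ultraviolet damage, was at 6.12, 8.62 and 6.54 FPKM in p53WT and 6.52, 5.96 and 4.32 in p53KO with no suffix. It was at 18.6, 18.0 and 13.3, and 18.8, 14.0 and 14.8 in 3dai, and at 12.4 and 12.4, and 11.1 and 8.26 in G2. The 3 states did not overlap in p53WT, and the order was the same in p53KO. It rose in 3dai by 1.12 (SE 0.24, adjusted p = 0.000916) and 1.36 (adjusted p = 0.000187). The G2 rise passed in p53WT (0.74, adjusted p = 0.049), but in no fit that left out p53WT replicate 1 or 3 or a p53WT_G2 library (0.111 to 0.185).

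Xpc and Ddb2, which recognise DNA damage in excision repair, passed in no comparison. Xpc was at 4.94, 4.87 and 7.31 FPKM in p53WT and 5.86, 4.86 and 4.17 in p53KO with no suffix, 5.74, 6.90 and 1.59, and 4.34, 3.39 and 1.93 in 3dai, and 5.86 and 2.89, and 2.72 and 6.54 in G2. Ddb2 was at 1.20, 1.69 and 1.28, and 1.78, 2.32 and 3.05 with no suffix, 0, 0.411 and 1.11, and 0, 2.84 and 1.85 in 3dai, and 3.17 and 2.11, and 0 and 5.28 in G2. The genotypes overlapped for both genes in every state, apart from Ddb2 with no suffix, where every p53KO library lay above every p53WT library (0.49, SE 0.58, adjusted p = 1). Both had negative 3dai differences in both genotypes, of -0.36 and -0.53 for Xpc and -0.73 and -0.59 for Ddb2.

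Msh6, a subunit of the mismatch sensor, was at 7.27, 8.56 and 8.66 FPKM in p53WT and 10.2, 11.7 and 12.3 in p53KO with no suffix. It was at 23.7, 23.1 and 20.5, and 20.6, 11.5 and 10.4 in 3dai, and at 15.9 and 14.7, and 15.71 and 13.5 in G2. In 3dai p53KO replicate 1 stood with the p53WT libraries and replicates 2 and 3, the libraries with much Mir6236, stood lower, at the level of p53KO cells with no suffix. Msh6 rose in 3dai in p53WT (1.36, SE 0.23, adjusted p = 0.000174) and was not called in p53KO (0.23, adjusted p = 0.42), where it passed without replicates 2 and 3 (0.81, adjusted p = 0.0329). The difference between genotypes in 3dai was -0.69 (SE 0.23, adjusted p = 0.35), and without p53KO_3dai replicate 1 it was -0.97 and passed (adjusted p = 0.0147), as did the interaction (-1.41, adjusted p = 0.0206). The call thus turns on 1 library. As the locus counted for Msh6 is 5.70 times as wide as the RefSeq gene, reads of a neighbour may be part of its values. The G2 rise of Msh6 in p53WT (0.84, adjusted p = 0.0267) was lost without p53WT replicate 1 (0.0732) or either p53WT_G2 library (0.137 and 0.106).

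**Figure D4:**
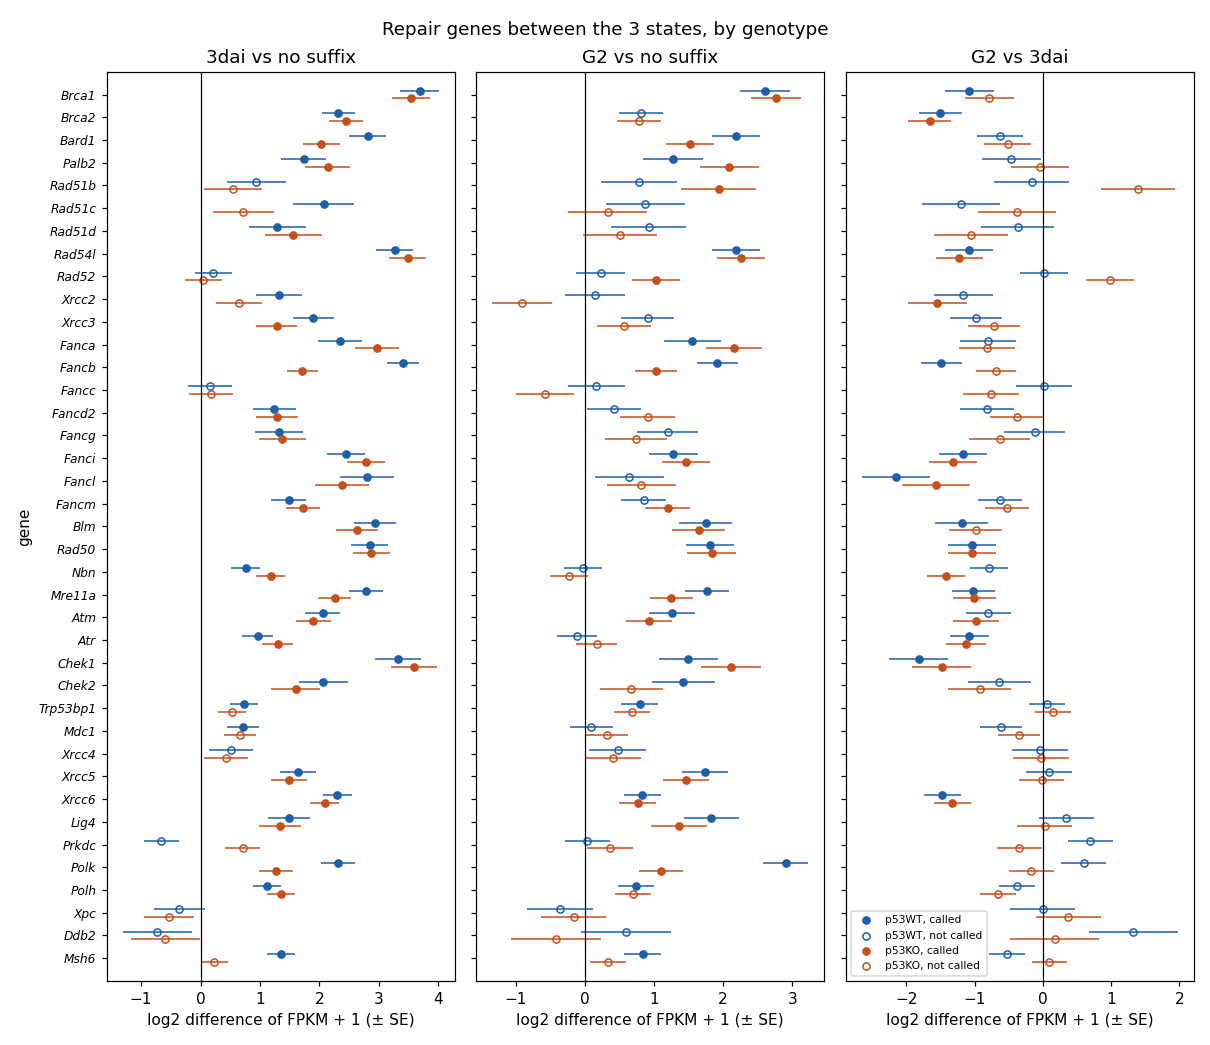
Rows are the 39 genes and points the log2 differences of FPKM + 1 between states with their SE, for 3dai against no suffix, G2 against no suffix and G2 against 3dai; filled points passed limma's test and open points did not, with p53WT in blue and p53KO in orange. Filled points lie right of 0 in the first and second panels (32 and 27, then 20 and 19) and left of 0 in the last (12 and 12).

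None of the 39 genes passed limma's test between p53KO and p53WT in any of the 3 states. With no suffix 0 were called, where 0.00772% of all genes tested were, and 2 had an unadjusted p under 0.05 (Fancb and Polk), where 3.95% of all genes did. In 3dai 0 were called, against 0.0849% of all genes, and 4 had an unadjusted p under 0.05 (Rad52, Fancb, Prkdc and Msh6), against 8.89%. In G2 0 were called, against 0.0695%, and 2 had an unadjusted p under 0.05 (Rad51b and Polk), against 4.87%. Median differences of the 39 genes were 0.20, 0.03 and 0.01, and with no suffix 30 of the 39 lay above 0, where the median of all genes was 0.01. With array weights, which give outlying libraries less weight, 3 were called in 3dai: Msh6 (-0.92, adjusted p = 0.00899) and Rad52 (-0.90, adjusted p = 0.0327) lower and Prkdc (1.08, adjusted p = 0.0201) higher with p53KO, where 804 of all genes were called against 11 in the fit with equal weights.

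The genes with the smallest p between genotypes went in different directions. With no suffix these were Fancb (0.90 higher with p53KO, SE 0.27), Polk (0.72, SE 0.29) and Msh6 (0.44, SE 0.23), each at adjusted p = 1. In 3dai they were Prkdc (1.00, SE 0.29, adjusted p = 0.295), Fancb (-0.79, SE 0.27, adjusted p = 0.347) and Msh6. In G2 they were Polk (-1.08, SE 0.35, adjusted p = 0.745), Rad51b (1.64, SE 0.60, adjusted p = 0.834) and Palb2 (0.95, SE 0.47, adjusted p = 1). Over Polk, Polh, Xpc and Ddb2, which are listed as p53 targets in textbooks (Ddb2 from human cells, a control not shared by the mouse gene), the difference was 0.72 for Polk, -0.30 for Polh, -0.16 for Xpc and 0.49 for Ddb2 with no suffix, -0.32, -0.06, -0.34 and 0.63 in 3dai, and -1.08, -0.34, 0.04 and -0.52 in G2. Standard errors of these values ran from 0.24 (Polh with no suffix and in 3dai) to 0.71 (Ddb2 in G2).

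Counted without a test, the genotypes did not overlap for a few genes in each state. With no suffix 5 genes stood higher in every p53KO library (Bard1, Fancb, Polk, Ddb2 and Msh6; 3.99% of all genes did) and 1, Prkdc, lower (2.74%). In 3dai 3 stood higher (Fanci, Nbn and Prkdc; 5.07%) and 3 lower (Rad52, Xrcc3 and Fancb; 6.91%). In G2 9 stood higher (Brca2, Rad51b, Rad52, Fanca, Fancd2, Fanci, Blm, Rad50 and Mdc1; 15%) and 4 lower (Nbn, Lig4, Polk and Polh; 16.1%). In the same G2 comparison 7 of 14 genes of dividing cells stood higher with p53KO without overlap, and 5 of 6 tendon cell, 3 of 6 pericyte, 3 of 6 Schwann and 2 of 5 fibro-adipogenic genes stood lower. Their part in these differences was not tested. Fanci was the one gene higher in 2 states, 3dai and G2. Fancb and Prkdc changed sides between no suffix and 3dai, Rad52 and Nbn between 3dai and G2, and Polk between no suffix and G2. The shares of all genes that stood higher in 2 states or changed sides were not counted. These patterns are therefore not shown to be more frequent among the repair genes.

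The interaction asks whether p53KO and p53WT differ in their change from no suffix to 3dai or to G2, and it passed for 0 of the 39 genes in either state, where 0% and 0.0232% of all genes passed. In 3dai 4 genes had an unadjusted p under 0.05 (Fancb, Prkdc, Polk and Msh6), against 6% of all genes, and in G2 1 did (Polk), against 4.35%. Next to Polk in G2 came Fancb (-0.89, SE 0.42) and Xrcc2 (-1.06, SE 0.61), both at adjusted p = 1. The 5 genes that rose in 3dai in p53WT alone had interactions that did not pass, so their rises are not shown to differ between genotypes.

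**Figure D5:**
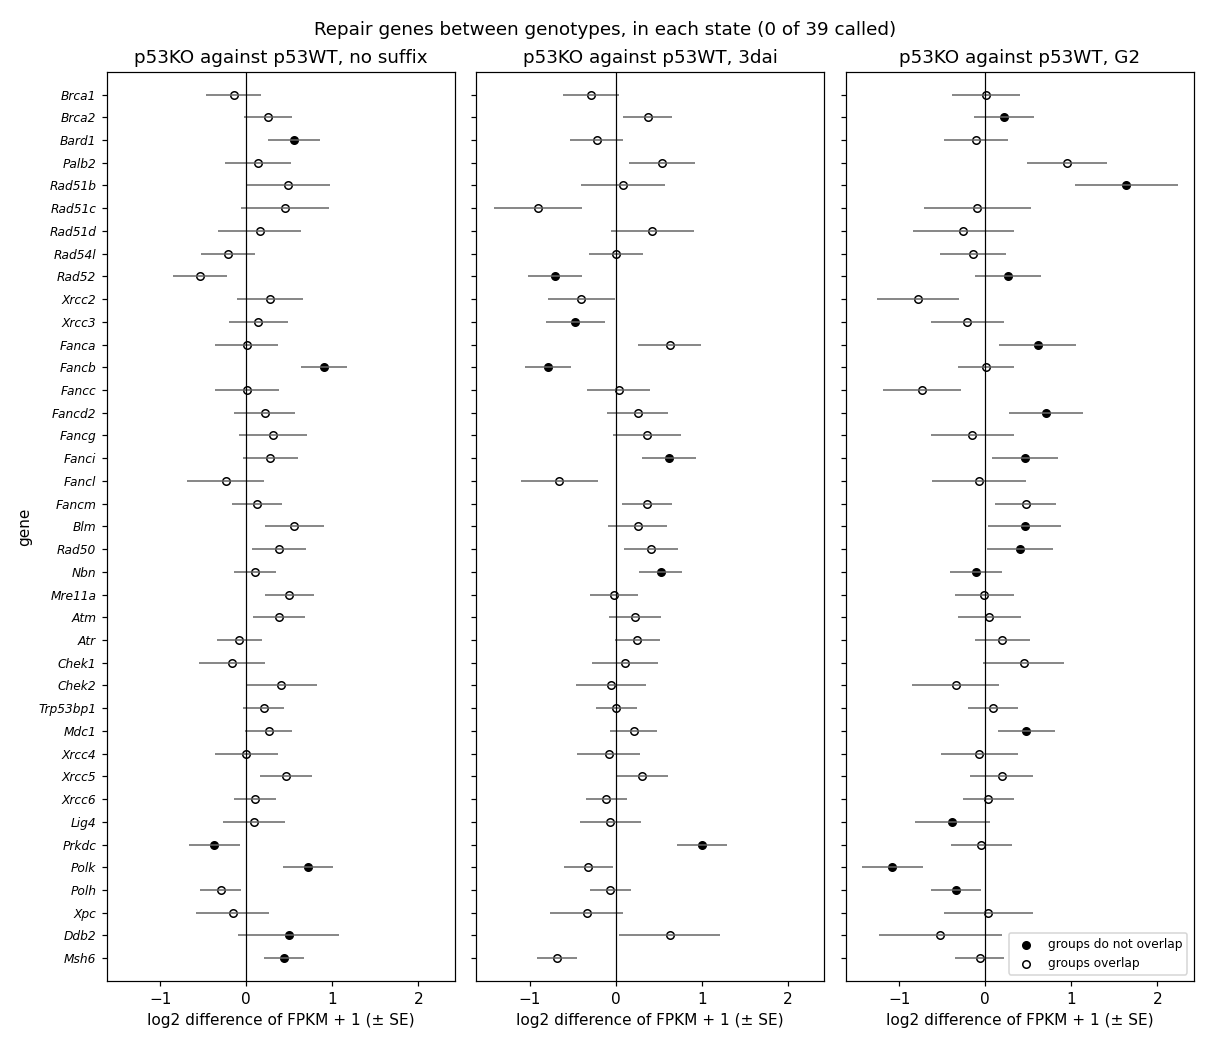
Rows are the 39 genes and points the log2 difference of FPKM + 1 between p53KO and p53WT with its SE, in cells without a suffix, 3dai cells and G2 cells; filled points mark genes whose genotypes do not overlap. Most points lie within 1 of 0, Rad51b in G2 reaches 1.64 and Polk in G2 -1.08, and none passed limma's test.

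Outside the list, 92 other repair genes were measured and tested, in lists of the same pathways. In 3dai 56 rose and 2 fell in p53WT, with a median of 1.39, and 57 rose and 2 fell in p53KO, with a median of 1.21. Of all genes tested, 31.8% and 30.4% rose and 20.9% and 22.7% fell. In G2 37 rose and 0 fell against no suffix in each genotype, and 21 and 18 were lower than in 3dai. Over all genes, 22.1% and 22.5% rose, 5.39% and 7.06% fell, and 6.7% and 7.1% were lower than in 3dai. Between genotypes 0 were called in any state. By pathway, 3dai rises in p53WT and p53KO numbered 16 and 15 of 20 recombination genes, 15 and 15 of 18 signalling genes, 4 and 4 of 9 Fanconi genes, 3 and 1 of 6 end joining genes, 9 and 11 of 15 base excision genes, 5 and 6 of 13 nucleotide excision genes, 4 and 5 of 6 mismatch genes and 0 and 0 of 5 translesion genes. The lists are small, and whether they differ from the 31.8% and 30.4% of all genes was not tested.

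Several of the genes that rose most in their lists are partners of the 39 genes. Topbp1, which activates ATR, rose in 3dai from a mean of 2.78 to 54.0 FPKM in p53WT (3.85 on the log2(FPKM + 1) scale, adjusted p = 9.95e-09) and from 2.93 to 73.8 in p53KO (4.26). Ube2t, the conjugating enzyme that works with FANCL, rose from 1.56 to 15.6 (2.79) and from 0.316 to 16.4 (3.74). Parp1, the break sensor of base excision repair, rose by 3.79 and 3.58, Ddb1, the partner of DDB2, by 1.41 and 1.67, and Poll, an end joining polymerase, by 1.88 in p53WT. Rad51ap1, a recombination gene, is listed at 0 in all p53KO libraries with no suffix and had a mean of 28.4 FPKM in p53KO_3dai.

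A few partners went down in 3dai. Mus81, a nuclease that cuts crossed strands, fell from 8.80 to 3.41 FPKM in p53WT (-1.22, SE 0.35, adjusted p = 0.00853). In p53KO, Atrip, the partner of ATR, fell from 14.4 to 7.98 (-0.86, adjusted p = 0.0379) and Neil1, a base excision glycosylase, from 5.77 to 1.17 (-1.65, adjusted p = 0.0477). In G2 the rises against no suffix included those of Topbp1 (2.70 and 2.77), Parp1 (2.81 and 2.76), Ube2t (1.66 and 2.92), Ddb1 (1.13 and 1.25) and, among translesion genes, Mad2l2 in p53KO (1.47). From 3dai to G2 the falls included Gen1 (-2.18), Usp1 (-1.22), Tipin (-1.63), Ogg1 (-2.02) and Gtf2h1 (-0.64) in p53WT, and Usp1 (-0.94), Rad1 (-3.11), Ercc1 (-0.80) and Pms1 (-1.38) in p53KO. Usp1, the deubiquitinase of FANCD2, was the one gene named in both genotypes there. Rad1 was at 3.35 and 0 FPKM in the p53KO_G2 libraries, so its fall rests partly on a library listed at 0.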

How the data were processed

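The 16 libraries of the 6 groups hold RNA of sorted cells. Per the labels' protocols, total RNA was isolated with a Qiagen Micro kit, and NEBNext Ultra II Directional reagents were used for the libraries. The authors deposited FPKM per gene, and per the submitters' processing notes STAR, Cufflinks, Cuffdiff and the mm10 build were used; the sources used here do not give versions or settings. FPKM hold no counts, so depth and the error it gives are unknown, and no count test was run.

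FPKM were taken to log2(FPKM + 1). Genes at 1 FPKM or more in at least 2 libraries were kept, 12954 of 24341, and all 16 libraries were fitted together with limma 3.58.1 in R 4.3.3, with a variance trend. P-values were adjusted by Benjamini-Hochberg over all genes tested in each of 11 comparisons, and called at an adjusted p under 0.05. Differences on this scale understate changes of low genes, and a value listed at 0 is not taken as absence.

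The 39 genes, the other lists and the rule for named genes were chosen with earlier results of these data known. Values in every library are given for the genes with the smallest p between genotypes, the largest called changes between states, the genes whose genotypes differ in sign and Polk, Polh, Xpc and Ddb2. Of the other repair genes, each list's largest called rise and fall were named where the higher group averaged at least 5 FPKM; some results are not reported here, and Tdg is left out because it is near 0 in some libraries of a group and not in others. Xrcc6 and other genes given with values outside the rule were chosen after their values were seen. Promoters and motifs are from RefSeq tables. The alternatives tried were the omission of each library, a block for the replicate number, a fit of only the compared groups, array weights, omission of small RNA and mitochondrial names, quantile normalization, median-of-ratios scaling, a pseudocount of 0.1, and either no filter or one at a mean of 5 FPKM. Leaving out p53KO_3dai replicates 2 and 3 together was added after seeing the data.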

Additional observations from a re-analysis of the deposited data

How the results depend on the processing

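No called difference of the 39 genes changed direction under any alternative run. Under the filter at a mean of 5 FPKM, which tested 17 of the 39, calls numbered 15 and 13 in 3dai against no suffix and 11 and 10 in G2 against no suffix (p53WT and p53KO). For G2 against no suffix, calls numbered 12 and 11 with median-of-ratios scaling, 10 and 11 with quantile normalization, and in p53KO 11 with only the groups compared. For G2 against 3dai, calls numbered 4 and 6 with a pseudocount of 0.1, 19 and 19 with quantile normalization, 19 in p53WT with array weights (18 lower and 1, Ddb2, higher), 7 in p53KO with only the groups compared, and 1 in p53KO (Rad51b, higher) without p53KO_3dai replicates 2 and 3, where the lone library is assumed to vary like the other groups. Between genotypes in 3dai, array weights gave 3 calls. The causes were not tested.

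Leaving out each library in turn gave 29 to 32 and 26 to 28 calls in 3dai against no suffix, 11 to 18 and 8 to 18 in G2 against no suffix, 4 to 8 and 5 to 11 in G2 against 3dai, 0 to 1 between genotypes in 3dai and for its interaction, and 0 for the others.

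Some uncalled genotype differences changed sign: Ddb2 in 3dai (-0.52) and Polh (0.177) and Xpc (0.0469) in 3dai without p53KO_3dai replicates 2 and 3; Polh in 3dai also with quantile normalization (0.0219) and without small RNA and mitochondrial names (0.0210). With single libraries left out, Polh in 3dai ran from -0.208 to 0.0161, Ddb2 in G2 from -1.85 to 0.804, Xpc in G2 from -0.473 to 0.546, and Xpc with no suffix from -0.266 to 0.00489.

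The labels give groups the same replicate numbers, but deviations of same-numbered libraries did not go together (correlations -0.159 to 0.127, 1 of 36 over 0.1), so the numbers were not taken as pairs. With the replicate block, calls numbered 0, 0 and 0 between genotypes, 31 and 27 in 3dai and 16 and 17 in G2 against no suffix, 8 and 9 in G2 against 3dai, and 0 for both interactions.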
